A study of Mus musculus with 8 samples.

Results

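The libraries described here are the 2 labelled Saline 1 and Saline 2, out of 8 RNA sequencing libraries of mouse macrophages, chosen by their labels alone. They came from 7-week-old male mice of the C57BL6 background and were treated with saline for 4 h. The other 6 libraries, treated with LPS, IFNb or both, were not used, and no treatment is compared. The labels name the cells only as macrophages, obtained peripherally after stimulation in the peritoneum. Whether cells were pooled, purified or elicited, and whether the 2 libraries came from separate mice, is not given in the sources used here. Values are TPM, an abundance corrected for transcript length that sums to 1000000 per library, added up over the transcripts of each gene. Where a pair of values is given, the first is Saline 1 and the second Saline 2. With 2 libraries of 1 group there is no test, and differences between the libraries may be technical.

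Macrophages engulf microbes, dead cells and debris and break them down in lysosomes. The mouse peritoneal cavity at rest is known to hold mostly large peritoneal macrophages, which depend on the transcription factor GATA6 and carry ICAM2 and the phosphatidylserine receptor TIM4, and fewer small peritoneal macrophages, which derive from monocytes and carry MHC class II. Resting macrophages are also known to keep a low, continuous level of interferon-induced transcripts and to hold back cytokine transcripts until a microbial product is sensed.

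TPM keeps no record of read number, so depth and counting error are unknown, and low values are the less precise. Of 30284 genes, 11594 (38.3%) had at least 1 TPM in both libraries, 7064 (23.3%) at least 10 TPM, 1284 (4.24%) at least 100 TPM and 126 (0.416%) at least 1000 TPM. Transcripts above 0 numbered 48482 in Saline 1 and 53928 in Saline 2. Across the 12257 genes with a mean of at least 1 TPM, log2(TPM + 1) of the libraries correlated at r = 0.966, which describes genes and not independent replicates. Several predicted genes were low in Saline 1 and far higher in Saline 2. Gm10800, on chromosome 2, was at 1.02 and 981 TPM, and its neighbour Gm10801 at 2.01 and 414 TPM. On chromosome 9, Gm10719 was at 0.309 and 88.97 TPM and Gm10718 at 0 and 81.004 TPM. Also there, Gm10717 was at 3.06 and 52.6 TPM and Gm11168 at 0 and 25.95 TPM. Among predicted genes other than pseudogenes, 57 were at least 2-fold higher in Saline 2 and 9 in Saline 1. Genes with long main transcripts also ran higher in Saline 2, as shown further on, so each level is given for both libraries. Ddx3y, a gene of the Y chromosome, was at 41.9 and 38.8 TPM in these male mice.

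General macrophage markers were high, while the markers of large peritoneal macrophages were split. Adgre1, which encodes the F4/80 antigen, was at 287 and 243 TPM (265 ± 31.3, SD, n = 2), rank 551 of all genes. Csf1r, the receptor of the growth factor CSF1, was at 310 and 324 TPM (317 ± 9.86, SD, n = 2), rank 464. These means lie above 98.2% and 98.5% of genes. In contrast Icam2 was at 19.6 and 16.2 TPM (17.9 ± 2.39, SD, n = 2), rank 5720. Timd4, which encodes TIM4, was at 0.427 and 0.549 TPM (0.488 ± 0.0859, SD, n = 2), rank 13689. Gata6 was at 1.13 and 1.75 TPM (1.44 ± 0.443, SD, n = 2), rank 11610. Of the 5 markers, Timd4 was below 1 TPM in both libraries and Gata6 below 2 TPM. The data therefore go against the name large peritoneal macrophage for the bulk of the RNA, and the cells are called saline macrophages here. In bulk RNA, fewer cells of a type and less RNA per cell cannot be told apart.

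All 17 pan-macrophage genes had at least 10 TPM in both libraries, and 13 had at least 100 TPM. Their median was 889 TPM, above 99.4% of genes. Mertk, a receptor for dying cells, was at 49.4 and 51.6 TPM and Fcgr1, the high-affinity IgG receptor, at 62.2 and 54.3 TPM. Cd68, a lysosomal membrane protein of phagocytes, was at 3367 and 2851 TPM. The 4 most abundant others were Lyz2 (lysozyme), Ctss (cathepsin S), the galactose-binding lectin Lgals3 and Tyrobp, the signalling adaptor DAP12, which had 2653 and 2272 TPM. None of the 17 genes was 2-fold apart on the TPM + 1 scale, a count near the background, beside 4.73% of 12257 genes with a mean of at least 1 TPM at least 2-fold higher in Saline 2 and 1.03% in Saline 1.

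The list of 26 large peritoneal macrophage genes had a median of 7.61 TPM. Of these 22 had at least 1 TPM in both libraries and 11 at least 10 TPM. By comparison, 10367 and 6591 of 19601 protein-coding genes with established names did. Selp, which encodes P-selectin, was at 1.07 and 3.99 TPM. Prg4, which encodes the lubricating glycoprotein lubricin, was at 10.03 and 21.975 TPM. The most abundant other members were Saa3, an acute-phase apolipoprotein, at 652 and 982 TPM, Fn1 (fibronectin) at 145 and 553 TPM, the protease inhibitor Slpi at 173 and 223 TPM and Cd93 at 164 and 187 TPM. Wnt2 was listed at 0 in both libraries, and the retinoic acid receptor Rarb was at 0.453 and 0.641 TPM. The list is thus uneven: several secreted and surface genes were abundant, and the GATA6 and TIM4 transcripts that define the type were near 0.

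**Figure D1:**
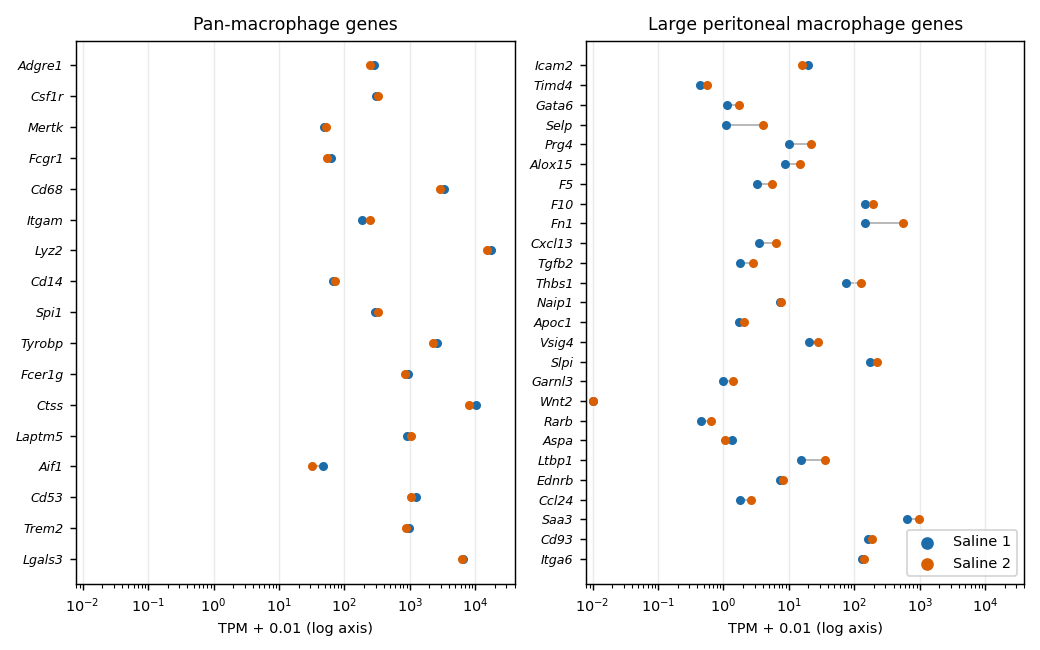
TPM + 0.01 on a log axis for 17 pan-macrophage genes (left) and 26 large peritoneal macrophage genes (right), with Saline 1 in blue and Saline 2 in orange. All pan-macrophage genes lie above 10 TPM, while Timd4, Gata6 and Rarb lie near or below 1 TPM.

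Lineage transcription factors were broadly detected. Of 26 listed, all had at least 1 TPM in both libraries and 20 at least 10 TPM. By comparison, 10367 and 6591 of 19601 protein-coding genes with established names did. Spi1, which encodes the master myeloid factor PU.1, was at 294 and 321 TPM. Cebpb was at 99.9 and 115 TPM and Maf at 42.4 and 49.3 TPM. The most abundant others were Id2 (293 and 262 TPM), an inhibitor of helix-loop-helix factors, Zeb2 (198 and 212 TPM), the oxidative stress factor Nfe2l2 (207 and 194 TPM) and Bhlhe40 (171 and 214 TPM). Klf4 (4.27 and 7.15 TPM) and Cebpd (6.31 and 5.19 TPM) were the least abundant after Gata6.

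A few genes held much of the RNA. The 25 most abundant genes took 24.02% of TPM in Saline 1 and 21.5% in Saline 2 (22.8 ± 1.76, SD, n = 2), and the 100 most abundant 39.2% and 36.5%. The lists of 25 made separately in each library shared 23 genes, and those of 100 shared 92. Iron storage led the known genes, with the ferritin light chain Ftl1 at 21988 and 20987 TPM and the heavy chain Fth1 at 16765 and 18322 TPM. Lysozyme followed, Lyz2 standing at 17557 and 15340 TPM. Apoe, the apolipoprotein that carries lipid out of macrophages, was at 14688 and 13489 TPM. Next came lysosomal proteins: Psap, the precursor of the saposins, at 13042 and 14121 TPM, the protease Ctsd at 12544 and 11195 TPM and Ctss at 10440 and 8102 TPM. Cathepsins Ctsl (4904 and 5022 TPM) and Ctsb (4994 and 4303 TPM) also ranked among the 25.

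Gpnmb and Mmp12 stood beside the housekeeping genes at the top. Gpnmb, a lysosome-associated membrane glycoprotein, was at 7091 and 7054 TPM (7072 ± 26.3, SD, n = 2), rank 12, close to cytoplasmic actin Actb at 6993 and 7622 TPM. Mmp12, the macrophage elastase, was at 4781 and 5101 TPM, rank 22. Spp1, which encodes the secreted matrix protein osteopontin and was picked after its values were seen, ranked 30 at 3805 and 3862 TPM. All of these were nearly equal in the libraries. Gpnmb lies on chromosome 6 (GRCm38 chr6:49036546-49070929) and Mmp12 on chromosome 9 (GRCm38 chr9:7344381-7369499). The remaining leaders were the translation genes Eef1a1 (8997 and 7908 TPM) and Tpt1 (8236 and 6615 TPM), the cytoskeletal genes Tmsb4x, Actg1 and Vim, Lgals3 (6420 and 6251 TPM), the mitochondrial genes mt-Atp8 and mt-Atp6, and 5 pseudogenes described further on.

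**Figure D2:**
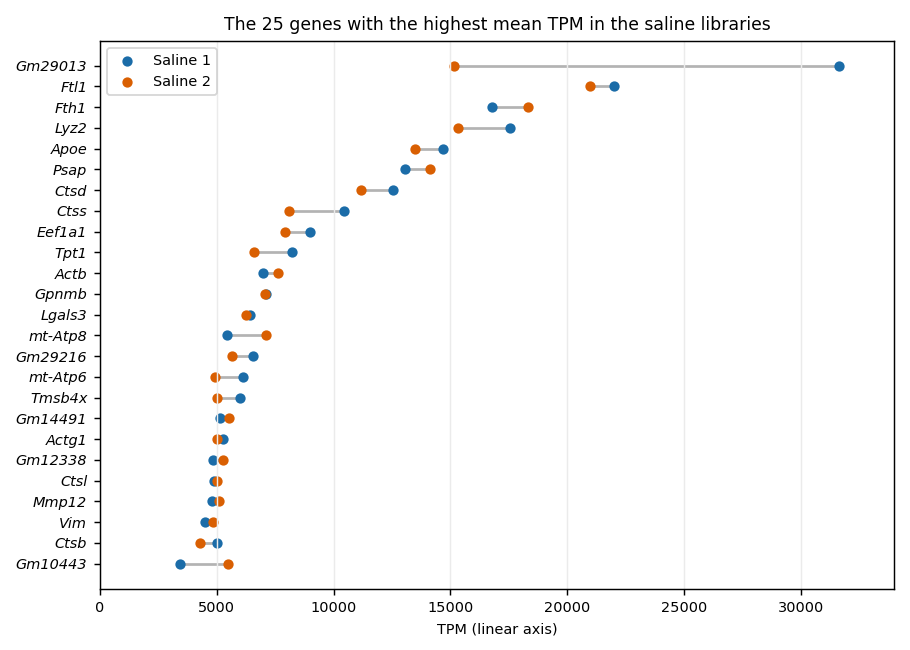
TPM on a linear axis for the 25 genes with the highest mean over the saline libraries, with Saline 1 in blue and Saline 2 in orange, joined by a line. Ftl1, Fth1, Lyz2, Apoe, Psap and Ctsd exceed 10000 TPM in both, and the pseudogene Gm29013 differs most, at 31637 and 15149 TPM.

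Lysosomal genes were high as a group. All 21 listed had at least 100 TPM in both libraries and 12 at least 1000 TPM, with a median of 1269 TPM, beside 0.247 TPM over all genes and 2.11 TPM over 19601 protein-coding genes with established names. Lamp1, a major lysosomal membrane protein, was at 1704 and 1540 TPM, rank 69. Many lysosomal genes are known to be driven by factors of the MITF and TFE family, which bind an E-box. The heptamer TCACGTG, searched on both strands, was found in the promoters of 4 of 18 listed genes with a RefSeq promoter (22.2%) and in 1160 of 27025 genes overall (4.29%). Each window ran from 250 bases before to 50 bases after the start. The stretch of 120 bases just before the start of Lamp1 (GRCm38 chr8:13159041-13159160, plus strand, RefSeq) held 4 copies, shown here in capitals because it is the densest case:

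Lamp1: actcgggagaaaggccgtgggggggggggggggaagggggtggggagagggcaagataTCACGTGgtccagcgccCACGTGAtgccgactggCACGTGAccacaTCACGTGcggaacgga

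The match is a description of letters, not of binding.

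Lipid handling genes were also abundant. Of 17 genes 16 had at least 10 TPM in both libraries and 5 at least 1000 TPM, beside 23.3% and 0.416% of all genes. After Apoe came the lipid chaperone Fabp5 at 4035 and 3381 TPM, the lipid droplet coat Plin2 at 3630 and 3734 TPM, lipoprotein lipase Lpl at 1969 and 1479 TPM, and the fatty acid receptor Cd36 at 1190.2 and 1048 TPM. Soat1, which esterifies cholesterol for storage, was at 853 and 833 TPM. Fabp4, the other fatty acid chaperone of macrophages, was at 750 and 634 TPM. Apoc1 was the least abundant at 1.73 and 2.03 TPM.

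In iron handling, the exporter Slc40a1 (ferroportin) was at 8.03 and 9.22 TPM, far under the ferritins. Hmox1, which breaks down haem, was at 326 and 392 TPM and the phagosomal metal transporter Slc11a1 at 585 and 647 TPM. Hamp, which encodes hepcidin, was at 0.519 and 0.481 TPM.

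The receptors for uptake were unequal. Of 22 scavenger and dead-cell receptor genes and ligands, 16 had at least 10 TPM in both libraries and 9 at least 100 TPM. Across all genes, 23.3% and 4.24% did. Marco was at 4.81 and 7.35 TPM, against 109 and 103 TPM for Msr1, both being scavenger receptors. Mfge8, a bridge between dead cells and integrins, was at 566 and 659 TPM, and Cd300lf, a phospholipid receptor, at 281 and 294 TPM. The endocytic receptors Stab1, at 128 and 319 TPM, and Lrp1, at 189 and 773 TPM, were both higher in Saline 2. Their most abundant transcripts were short models of 242 and 763 bases. Among IgG receptors, Fcgr3 was at 558 and 551 TPM, the inhibitory Fcgr2b at 246 and 330 TPM and Fcgr4 at 109 and 98.4 TPM, and their signalling chain Fcer1g at 940 and 839 TPM.

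Complement genes were well represented, 15 of 19 having at least 10 TPM in both libraries, beside 6591 of 19601 protein-coding genes with established names. The 3 chains of C1q, C1qa, C1qb and C1qc, were at 203 and 178 TPM, 615 and 478 TPM, and 303 and 270 TPM. The anaphylatoxin receptors C3ar1 (532 and 484 TPM) and C5ar1 (115 and 123 TPM) were also high. C3, the central component, was at 40.6 and 109 TPM, and it differed more between the libraries than any of the other 5. Of coagulation genes, F7 was at 291 and 325 TPM and F10 at 149 and 197 TPM, and F5, the cofactor of factor X, at 3.26 and 5.48 TPM. Proc, which encodes protein C, was listed at 0.

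Antigen presentation was led by class I. B2m, the shared light chain, was at 4833 and 3592 TPM, and the heavy chains H2-D1 and H2-K1 were at 3628 and 3151 TPM and at 994 and 826 TPM. Class II was lower, with Cd74, the invariant chain, at 682 and 593 TPM, H2-Aa at 478 and 381 TPM and H2-Ab1 at 243 and 213 TPM. Ciita, the class II transactivator, was at 3.01 and 3.33 TPM, the least abundant of the 17 genes listed.

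Genes of growth factor and cytokine receptors had a median of 98.7 TPM, with 18 of 22 at 10 TPM or more in both libraries. Across all genes, 23.3% were. Csf2ra and Csf2rb, the chains of the GM-CSF receptor, were at 114 and 145 TPM and at 196 and 289 TPM. The IL-10 receptor chain Il10ra was at 41.9 and 46.9 TPM and Il6ra at 21.7 and 32.1 TPM. Tnfrsf1b, a TNF receptor, was at 278 and 270 TPM. Integrin genes spanned a wide range, with Itgb2 at 721 and 669 TPM, Itgam (CD11b) at 189 and 250 TPM and Itga6 at 131 and 144 TPM, but Itga4 at 20.6 and 20.5 TPM, Itgal at 16.3 and 14.6 TPM and Itgb3 at 5.92 and 9.84 TPM. In eicosanoid synthesis, Alox5ap, the 5-lipoxygenase activator, was at 435 and 378 TPM, above the lipoxygenases Alox15 (8.80 and 14.6 TPM) and Alox5 (6.20 and 10.4 TPM). Cyclooxygenase 2, encoded by Ptgs2, was at 1.45 and 2.78 TPM.

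Genes linked to alternative activation, the state that IL-4 induces, were mixed. Arg1, which encodes the arginine-consuming enzyme arginase, was at 430 and 890 TPM (660 ± 325, SD, n = 2), rank 217, and a little over 2-fold apart in the libraries (log2 ratio of TPM + 1 of 1.05). Chil3, a chitinase-like secreted protein, was at 207 and 233 TPM. By comparison Retnla was at 14.99 and 22.5 TPM, Mrc1, the mannose receptor, at 46.7 and 42.5 TPM and the chemokine Ccl24 at 1.77 and 2.65 TPM. Nos2, the nitric oxide synthase that uses the same substrate as arginase, was at 0.0741 and 0.116 TPM.

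Traces of other peritoneal cells were looked for with 13 marker lists holding 122 distinct genes, apart from the monocyte list. Of the 122, 67 had at least 1 TPM in both libraries, 17 at least 10 TPM and 1 at least 100 TPM. In both libraries 9 were listed at 0. Among 19601 protein-coding genes with established names, 10367, 6591 and 1134 reached these levels. The count at 1 TPM is therefore near that background, and the others lie below it. The median of the 122 was 1.79 TPM, beside 2.11 TPM for the coding genes. The gene above 100 TPM was Pf4, a platelet chemokine that macrophages also express, at 206 and 219 TPM. Other platelet markers were lower, with Itga2b at 0.975 and 3.23 TPM, Ppbp at 0.362 and 0.550 TPM and Gp9 listed at 0 in both.

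B cell genes gave the trace with the highest median of the 13 lists, 7.37 TPM. Of 15, 13 had at least 1 TPM in both libraries and 5 at least 10 TPM, with summed levels of 264 and 269 TPM. By comparison, 10367 and 6591 of 19601 protein-coding genes with established names did, so the count at 10 TPM is near that background. Ms4a1 (CD20) was at 11.1 and 10.1 TPM and Cd79a and Cd79b, which signal for the antigen receptor, at 16.5 and 16.7 TPM and at 17.4 and 19.4 TPM. Pax5, the B lineage factor, was at 6.26 and 5.92 TPM. Ighm, the IgM heavy chain, was at 82.7 and 99.4 TPM, and Cd22, an inhibitory B cell lectin, was at 92.0 and 79.2 TPM. None of 14 B cell genes with a mean of at least 1 TPM was 2-fold apart, a count near the background of 4.73% and 1.03% of all genes.

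Mast cell proteases gave a second trace. Cpa3 was at 13.4 and 12.7 TPM, Tpsb2 (a tryptase) at 17.8 and 17.1 TPM, Cma1 (a chymase) at 17.2 and 20.005 TPM and Mcpt4 at 6.64 and 7.74 TPM. Their receptors were lower: Kit was at 1.36 and 3.92 TPM and Ms4a2, a chain of the IgE receptor, at 0.377 and 0.352 TPM. Of 12 T cell genes 9 had at least 1 TPM in both libraries, with Cd3e at 2.73 and 2.36 TPM, Cd3d at 2.23 and 2.47 TPM and Cd28 at 14.1 and 13.4 TPM. NK cell genes were lower, 5 of 11 reaching 1 TPM. As 10367 of 19601 protein-coding genes with established names did, the NK cell count is near that background and the T cell count above it. The NK receptor Ncr1 was at 0.616 and 0.313 TPM, perforin Prf1 at 0.364 and 0.0749 TPM, and granzyme Gzmb was listed at 0 in both.

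Neutrophil genes were uneven. Near 0 were the granule genes Elane (0 and 0.124 TPM), Mpo (0.0662 and 0.124 TPM) and Camp (0.115 and 0 TPM). The surface marker Ly6g was at 0 and 0.0689 TPM. Retnlg (73.9 and 128 TPM), Mmp8 (62.5 and 73.5 TPM), the G-CSF receptor Csf3r (89.0 and 105 TPM) and the alarmin S100a8 (70.8 and 63.5 TPM) were higher. S100a9, the partner of S100a8, was at 3.85 and 12.7 TPM. Eosinophil granule genes Epx and Prg3 were listed at 0 in both libraries, while the surface genes Siglecf (7.499 and 8.36 TPM) and Ccr3 (7.86 and 9.99 TPM) were detected. Dendritic cell genes such as Flt3 (1.03 and 1.32 TPM), Zbtb46 (0.682 and 0.866 TPM) and Xcr1 (0.145 and 0.186 TPM) were low, with Itgax, which macrophages also express, at 44.6 and 50.9 TPM. No adipocyte gene of 5 reached 1 TPM, with Adipoq, Lep and Cidec listed at 0 in both.

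Several traces differed between the libraries, stromal genes among them. The 9 fibroblast genes summed to 47.1 TPM in Saline 1 and 133 TPM in Saline 2. Col1a1, a chain of collagen I, was at 2.45 and 30.97 TPM, Col1a2 at 8.04 and 25.8 TPM and Col3a1 at 7.15 and 24.5 TPM. All 7 with a mean of at least 1 TPM were higher in Saline 2, and 3 were at least 2-fold higher, beside 4.73% of all genes. The 9 mesothelial genes summed to 10.8 and 20.1 TPM, and all 6 with a mean of at least 1 TPM were higher in Saline 2, with the surface antigen Msln at 0.961 and 2.45 TPM and Wt1 at 1.58 and 3.38 TPM. Endothelial genes were split: Vwf, a clotting protein, was at 20.9 and 47.9 TPM, while the receptor Kdr was at 4.05 and 3.53 TPM and the adhesion molecule Pecam1 at 8.06 and 7.40 TPM. Among neutrophil genes 6 of 7 with a mean of at least 1 TPM were higher in Saline 2, with sums of 309 and 400 TPM. Across all genes, 7395 of 12257 were higher in Saline 2 and 4862 in Saline 1.

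Monocyte and small peritoneal macrophage genes had a median of 18.7 TPM. Of 17, 15 were at 1 TPM or more in both libraries and 10 at 10 TPM or more. By comparison, 10367 and 6591 of 19601 protein-coding genes with established names were. Ccr2, the monocyte chemokine receptor, was at 34.1 and 31.5 TPM, Ly6c2 at 9.81 and 6.04 TPM and Irf4 at 2.42 and 2.18 TPM. Folr2, a folate receptor of tissue macrophages, was at 73.9 and 57.7 TPM and Lyve1 at 0.0739 and 0.163 TPM. Several of these genes, such as Cd74, H2-Aa and Mrc1, are expressed by many macrophages.

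**Figure D3:**
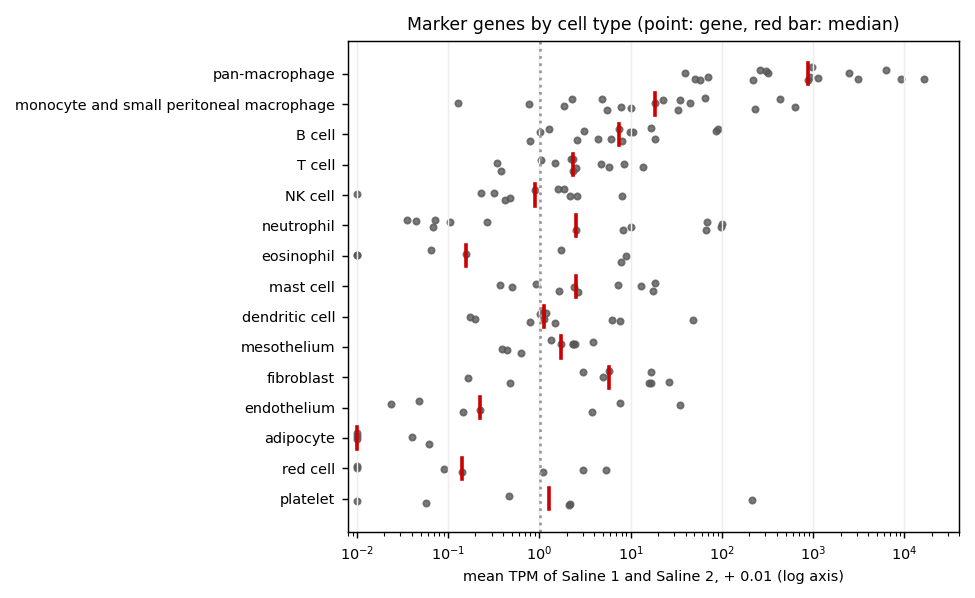
Mean TPM of both saline libraries, plus 0.01, on a log axis for the marker genes of 15 cell types, 1 point per gene, with the median of a list as a red bar and 1 TPM dotted. The pan-macrophage median is 889 TPM, and the next are 18.7 TPM for monocyte genes and 7.37 TPM for B cell genes.

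Interferon-stimulated genes were mostly detected in the saline libraries. Of 52 interferon-stimulated genes 49 had at least 1 TPM in both libraries and 32 at least 10 TPM, beside 38.3% and 23.3% of all genes. Among 19601 protein-coding genes with established names, 10367 and 6591 did so. The list's median was 17.784 TPM in Saline 1 and 17.996 TPM in Saline 2, close to the 17.4 TPM median of all genes with at least 1 TPM in both libraries. Isg15, a ubiquitin-like modifier, was at 13.3 and 8.20 TPM, Ifit1, which binds foreign RNA, at 5.55 and 4.59 TPM, the antiviral GTPase Mx1 at 5.83 and 7.33 TPM and the RNA sensor Oas1a at 35.5 and 26.6 TPM. Irf7, the factor that amplifies interferon production, was at 71.5 and 39.2 TPM. Ly6e (480 and 378 TPM), Ifitm3 (315 and 263 TPM), which blocks viral entry, Slfn2 (129 and 114 TPM) and Slfn5 (105 and 95.7 TPM) were the most abundant. At the low end Ifi44 was at 0.241 and 0.746 TPM and Iigp1 at 0.713 and 0.888 TPM.

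None of 50 members with a mean of at least 1 TPM was 2-fold apart on the TPM + 1 scale in either direction, beside 4.73% of all 12257 genes higher in Saline 2 and 1.03% higher in Saline 1, so the count is near the background. Of the 50, 35 were higher in Saline 1 and 15 in Saline 2, with a median log2 ratio of Saline 2 over Saline 1 of -0.14, against 0.08 over all genes. Oasl1, a relative of the OAS enzymes, was at 11.7 and 5.63 TPM (log2 ratio of -0.94), Irf7 had a log2 ratio of -0.85 and Isg15 of -0.64.

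The genes for the ligands had the lowest levels of the interferon pathway. Of 10 interferon genes, 7 were listed at 0 in both libraries, Ifnb1 among them, and none reached 1 TPM. A value of 0 here is no measure of absence, since the ribosomal protein gene Rps12 is also listed at 0 in both. Ifng was at 0.126 and 0.0597 TPM. The receptors were present, with the type I chains Ifnar1 at 76.5 and 86.4 TPM and Ifnar2 at 161 and 136 TPM and the type II chains Ifngr1 at 131 and 124 TPM and Ifngr2 at 144 and 133 TPM. Jak1, the kinase they share, was at 125 and 124 TPM and Tyk2 at 12.96 and 21.7 TPM. Socs1, an inhibitor that interferon induces, was at 0.344 and 0.936 TPM.

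Interferon-stimulated genes are known to share a promoter element bound by ISGF3 and IRF factors. The letters TTTCNNTTTC, searched on both strands, were in the promoters of 23 of 38 listed genes with a RefSeq promoter (60.5%) and of 1079 of 27025 genes overall (3.99%). The 120 bases before the start are shown for members with 3, 2 and 1 matches, with every match in capitals (overlapping matches run together):

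Isg15: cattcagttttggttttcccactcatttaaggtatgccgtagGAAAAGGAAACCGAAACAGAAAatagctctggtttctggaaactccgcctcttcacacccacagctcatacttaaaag

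Oas1a: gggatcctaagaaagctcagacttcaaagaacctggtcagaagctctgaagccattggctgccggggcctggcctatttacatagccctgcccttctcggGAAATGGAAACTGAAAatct

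Igtp: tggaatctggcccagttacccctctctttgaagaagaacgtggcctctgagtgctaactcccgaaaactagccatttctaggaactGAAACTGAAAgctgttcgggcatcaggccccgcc

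They lie at GRCm38 chr4:156200819-156200938 (minus strand), chr5:120907526-120907645 (minus strand) and chr11:58199436-58199555 (plus strand), outside any exon of GENCODE M21. Igtp, an immunity-related GTPase gene, was at 10.1 and 8.80 TPM, near Isg15 and below Oas1a. For PU.1, the letters GAGGAAGT were in 2 of 12 promoters of pan-macrophage genes (16.7%) and in 997 of 27025 overall (3.69%). All of these are counts of letters in a window.

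Inflammatory cytokine genes were mostly low. Of 21 listed, 11 had at least 1 TPM in both libraries and 5 at least 10 TPM, with a median of 1.67 TPM. Among 19601 protein-coding genes with established names, 10367 and 6591 reached these levels, with a median of 2.11 TPM. The cytokine counts are thus near or below that background. Tnf was at 7.06 and 6.69 TPM, Il1b at 5.28 and 7.06 TPM and Il1a at 13.4 and 13.01 TPM. Il6 was at 0.168 and 0.635 TPM and Il12b, a subunit of IL-12 and IL-23, at 0.682 and 0.377 TPM. Csf2, which encodes GM-CSF, was listed at 0 in both. The most abundant members were the restraining factors Il1rn, the IL-1 receptor antagonist, at 149 and 178 TPM, and Tgfb1 at 119 and 166 TPM, followed by Il18 at 12.5 and 15.6 TPM. Il10 was at 0.323 and 0.152 TPM.

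Chemokines were uneven. Of 24, 17 had at least 1 TPM in both libraries and 9 at least 10 TPM. Of 19601 protein-coding genes with established names, 10367 and 6591 did. Ccl6 (443 and 511 TPM), Ccl9 (225 and 250 TPM), Pf4 and the membrane-bound Cxcl16 (98.7 and 86.7 TPM) were the most abundant. Ccl3, which draws monocytes and T cells, was at 42.5 and 44.5 TPM. The inducible Cxcl1, Cxcl2 and Cxcl10 were at 0.953 and 1.05 TPM, 5.01 and 5.24 TPM, and 1.95 and 2.31 TPM. Ccl2 was at 8.69 and 8.85 TPM. A pair of genes was over 2-fold apart: Ccl8 at 48.4 and 13.1 TPM and Ccl7 at 1.00 and 3.52 TPM, in opposite directions. That is 1 each way among 18 chemokine genes with a mean of at least 1 TPM. Across all genes, 4.73% were called toward Saline 2 and 1.03% toward Saline 1.

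Inflammatory effectors were uneven as well. Of 17, 15 had at least 1 TPM in both libraries, 7 at least 10 TPM and 2 at least 100 TPM. Among 19601 protein-coding genes with established names, 10367, 6591 and 1134 reached these levels. The effector genes summed to 1272 and 2088 TPM, with a median of 10.2 TPM. A sum is weighted to its most abundant members, and the medians by library were 8.51 and 11.4 TPM. Of 15 effector genes with a mean of at least 1 TPM, 1 was at least 2-fold higher in Saline 2, beside 4.73% of all genes. Acod1, which makes itaconate, was at 8.32 and 10.01 TPM and mitochondrial Sod2 at 26.8 and 28.6 TPM. Cd274, which encodes PD-L1, was at 66.3 and 64.6 TPM. All 16 feedback genes of NF-kB had at least 1 TPM in both libraries, among them Nfkbia at 42.9 and 49.8 TPM, Tnfaip3 at 23.7 and 29.4 TPM, the mRNA decay factor Zfp36 at 48.6 and 65.6 TPM and the glucocorticoid-induced Tsc22d3 at 140 and 136 TPM.

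Immediate-early genes, which rise within minutes of a stimulus or of cell handling, were mixed. Atf3, a stress-induced factor, was at 605 and 616 TPM (611 ± 7.99, SD, n = 2), rank 241, equal in the libraries. Jun was at 125 and 170 TPM, Klf6 at 165 and 162 TPM, Junb at 51.3 and 66.2 TPM, Egr2 at 45.5 and 49.2 TPM and Fos at 22.2 and 29.1 TPM. Egr1 (2.11 and 3.95 TPM), Egr3 (0.144 and 0.815 TPM) and Fosb (0.0931 and 0.0624 TPM) were low. Atf3 thus stood above the median of the 19 genes, 14.8 TPM.

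**Figure D4:**
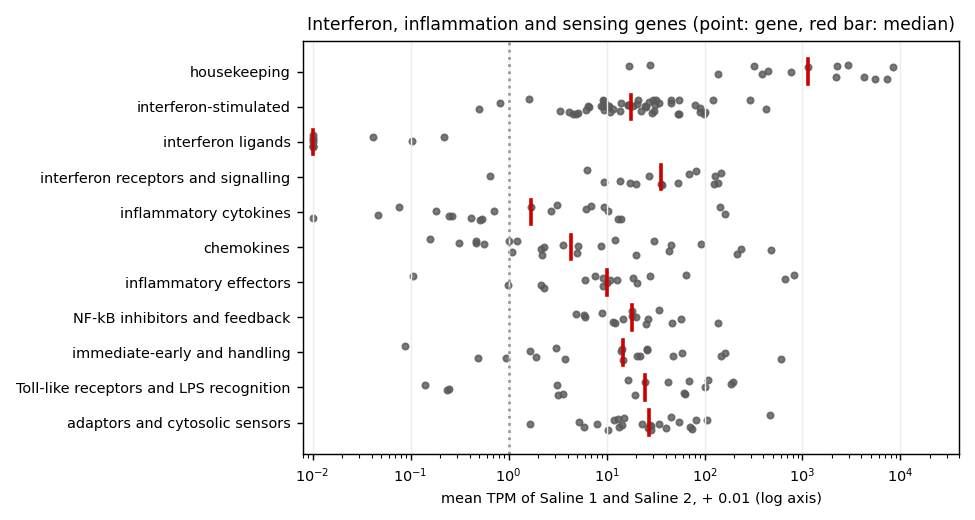
Mean TPM of both saline libraries, plus 0.01, on a log axis for genes of interferon, inflammation and microbial sensing, beside housekeeping genes, 1 point per gene, with list medians as red bars and 1 TPM dotted. Interferon ligands lie near 0, cytokines have a median of 1.67 TPM, and sensors of 24.8 and 27.04 TPM.

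Genes that sense microbes were well detected. Of 17 genes of Toll-like receptors and LPS recognition, 11 had at least 10 TPM in both libraries. By comparison, 6591 of 19601 protein-coding genes with established names reached 10 TPM in both, and 10367 reached 1 TPM. Tlr4, the LPS receptor, was at 44.1 and 39.9 TPM, and its partners Cd14 and Ly96 (MD-2) were at 66.7 and 72.9 TPM and at 73.4 and 53.2 TPM. Tlr2, for bacterial lipoproteins, was at 20.9 and 18.4 TPM. The RNA-sensing receptors were unequal, with Tlr13 at 213 and 179 TPM, Tlr8 at 116 and 88.2 TPM, Tlr7 at 59.9 and 62.5 TPM and Tlr3 at 3.76 and 3.43 TPM. Cd180, a TLR4 relative, was at 204 and 172 TPM and its partner Ly86 at 118 and 97.6 TPM. Tlr11 (0.136 and 0.313 TPM) and Tlr12 (0.0640 and 0.198 TPM) were lowest. Of 24 adaptors and cytosolic sensors found, all had at least 1 TPM in both libraries, among them Myd88 at 35.3 and 33.7 TPM and Ticam1 (TRIF) at 11.8 and 14.5 TPM. The beta-glucan receptor Clec7a (525 and 409 TPM) and the inflammasome genes Casp1 (113 and 98.9 TPM) and Aim2 (83.6 and 81.1 TPM) led this list.

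Of 18 cell cycle genes, 17 had at least 1 TPM in both libraries and 5 at least 10 TPM, with a median of 3.52 TPM. By comparison, 10367 and 6591 of 19601 protein-coding genes with established names did, with a median of 2.11 TPM. The cell cycle count at 10 TPM is thus near that background. Mki67 was at 1.54 and 1.39 TPM, Top2a at 4.11 and 6.75 TPM, Ccnb1 at 0.904 and 2.49 TPM and Cdk1 at 3.89 and 2.78 TPM. Pcna, which also serves DNA repair, was at 326 and 283 TPM, and Cdkn1a, which restrains the cycle, at 48.4 and 60.7 TPM.

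Pseudogenes held 12.3% and 11.6% of TPM, and genes whose most abundant transcript has under 300 bases held 11.3% and 11.05%. The highest value of all belonged to Gm29013, a pseudogene of 237 bases on chromosome 1 (GRCm38 chr1:105244425-105244661), at 31637 and 15149 TPM. It shared at most 5.42% of its 31-base words with any named gene, and Gm14491 (5149 and 5532 TPM) shared 43.8% with Gapdh. Other abundant entries share all or nearly all of their sequence with another gene. Gm12338 (4841 and 5267 TPM) had all of its 31-base words in common with Cox7c, a subunit of cytochrome oxidase, which was itself at 99.3 and 103 TPM. Gm10443 (3413 and 5466 TPM) shared 100% of its words with Rps28, which was at 808 and 672 TPM. Gm29216 (6570 and 5666 TPM) shared 97.2% with mt-Co1. The ribosomal protein gene Rps12 was listed at 0 in both libraries, while Rps12l1, with 100% of its words in Rps12, was at 1630 and 1734 TPM. Levels of these last genes and their partners are therefore uncertain. Cytosolic ribosomal protein genes held 5.67% and 5.57% of TPM (5.62 ± 0.0732, SD, n = 2), 70 of 76 being at 100 TPM or more, and the 13 mitochondrial genes held 3.93% and 3.57%.

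Transcripts of a gene could also be split. Of 490 listed genes with at least 1 TPM in both libraries, 228 had a single transcript with at least 90% of the gene's TPM and 45 had 2 transcripts or more with at least 30% each. For Apoe, Apoe-203 of 456 bases held 58.4% and 54.4% and Apoe-209 of 1104 bases 38.7% and 38.7%. Cd68 was shared by the coding Cd68-201 (59.9% and 67.5%) and the noncoding Cd68-203 (38.2% and 30.3%). In Soat1, a transcript with a retained intron, Soat1-205, held 46.2% and 36.98%, beside 41.9% and 40.7% for the coding Soat1-201. Both forms of the invariant chain were present, that of 1224 bases with 69.7% and 68.8% and that of 1410 bases with 30.3% and 31.2%. Trem2, a lipid receptor of macrophages, had a transcript of 1088 bases at 56.5% and 55.4% and one of 1056 bases at 37.2% and 33.6%. These shares were within 10 percentage points between the libraries.

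The 2 saline libraries differed from each other in a directed way. Of 12257 genes with a mean of at least 1 TPM, 580 (4.73%) were at least 2-fold higher in Saline 2 and 126 (1.03%) in Saline 1, on the TPM + 1 scale. Pseudogenes made up 166 of the 580 and 88 of the 126. Among genes of at least 10 TPM with established names, the largest ratios toward Saline 2 were those of Col1a1 (log2 of 3.21), the mitochondrial tRNA ligase Lars2 (121 and 830 TPM, 2.77), Gcn1l1 (2.54), Ahnak2 (2.45), the cytolinker Plec (2.26), Lrp1 (2.03), Ankrd52 (1.99), Kmt2d (1.94), Fn1 (1.92) and the receptor Notch1 (1.89). Toward Saline 1 they were those of the ribosomal protein genes Rpl18 (17.5 and 3.85 TPM, -1.93) and Rpl13a (50.2 and 14.9 TPM, -1.69), Ccl8 (-1.81) and Coq4 (-1.52). Rpl18 and Rpl13a lie far under the median of cytosolic ribosomal protein genes, 707 TPM. The part of read assignment in their levels was not tested. In the list of large peritoneal macrophage genes, 21 of 23 with a mean of at least 1 TPM were higher in Saline 2. Across all genes, 7395 of 12257 were. Of the 23, 4 (Selp, Prg4, Fn1 and Ltbp1) were at least 2-fold higher, beside the 4.73% of all genes. The stromal genes given above moved the same way, and their part in this was not tested.

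The ratio also moved with transcript length. Among 6939 protein-coding genes with established names and a mean of at least 10 TPM, the median log2 ratio of Saline 2 over Saline 1 was 0.00127 for the 1701 genes whose main transcript has up to 1000 bases and -0.04 for the 1485 genes of over 1000 and up to 2000 bases. It was 0.11 for the 995 genes of over 4000 and up to 6000 bases, 0.22 for the 330 genes of over 6000 and up to 8000 bases and 0.30 for the 181 longer ones. In this last group 84.0% of genes were higher in Saline 2, against 50.1% up to 1000 bases and 42.2% at over 1000 and up to 2000 bases. The rise with length was not steady at the short end. At least 2-fold higher in Saline 2 were 48 of the 1701 genes up to 1000 bases. In the next class 4 of 1485 were, and 22 of the 181 longest, the highest share of any class. Across all 6939 genes the correlation of the log2 ratio with log10 length was r = 0.143. Fn1 (7694 bases), Plec (14827 bases) and Col1a1 (5930 bases) have long main transcripts. Those of Lrp1 (763 bases), Gcn1l1 (240 bases) and Notch1 (184 bases) are short models, from genes with 10, 9 and 11 listed transcripts. Genes were classed by the most abundant model alone, so a short class can hold genes that also have longer transcripts. The part of length in the differences between the libraries was not tested.

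**Figure D5:**
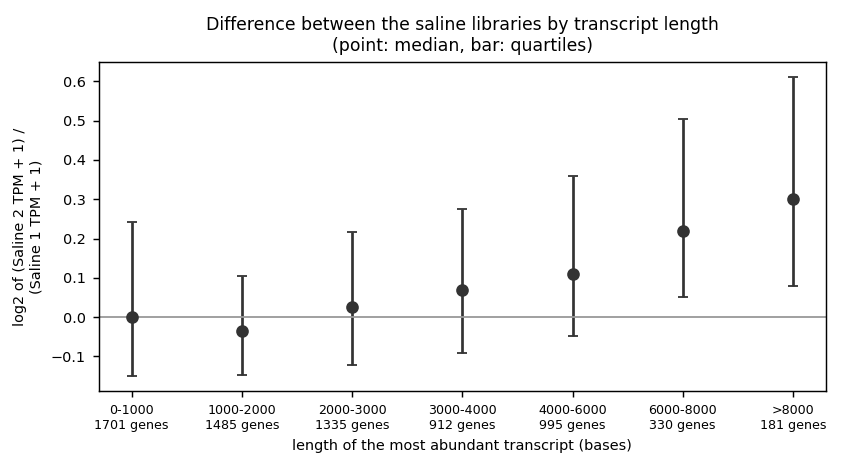
Log2 ratio of Saline 2 over Saline 1 (TPM + 1) against the length in bases of the most abundant transcript, for 6939 protein-coding genes in 7 classes of length, with the median as a point and the quartiles as bars. The median is near 0 in the shortest class, -0.04 at 1000 to 2000 bases and 0.30 above 8000 bases.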

How the data were processed

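Total RNA was sequenced (Illumina TruSeq preparation, per the labels' protocols) and gave 1 deposited file of TPM values per library for 88198 mouse transcripts. Per the submitters' processing notes the authors used kallisto and the mm10 build. Not given in the sources used here: kallisto's version, options, transcript set and use of strand. Transcripts were matched to GENCODE M21 (GRCm38), which held 86119. The other 2079 took 1.34% of TPM in Saline 1 and 1.95% in Saline 2 and do not enter any value. A gene's level is the sum of its transcripts' TPM (30284 genes), and levels and ranks use no filter. Depth cannot be recovered from TPM. A gene at 0 may be a failed assignment of shared reads.

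Ratios between the libraries used log2(TPM + 1) and genes with a mean of at least 1 TPM, and a gene was called 2-fold apart at a log2 ratio of 1. That scale understates ratios of low genes. No test was run, since 2 libraries of 1 group allow a description only. Words of 31 bases were compared on both strands between the transcripts of M21. Promoters came from RefSeq (GRCm38.p6).

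There were 41 gene lists with 605 genes, 604 of them found. The members and lists were chosen with earlier results of these data known. Genes were named by rule: the 25 most abundant, the first 5 of a list, its 4 most and 2 least abundant others, the 10 largest ratios each way at a mean of at least 10 TPM, and list genes with split transcripts. Other genes named, such as examples from a list outside those places, were picked after their values were seen. Some genes that the rule picks are not reported here. Python 3.11.15 with pandas 2.3.3 was used. Alternatives were thresholds moved 2 times, the main transcript only, coding nuclear genes rescaled, a pseudocount of 0.1, other filters, median-ratio scaling and each library alone.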

Additional observations from a re-analysis of the deposited data

How the results depend on the processing

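Of 77 alternatives over 14 results, 61 left the value within 1.5 times (counts) or within 1 SD of the libraries (shares and the median). No threshold moved 2 times up or down and neither library alone changed a count by over 1.5 times. Taking only the most abundant transcript gave 20.9% of TPM for the top 25 genes, 4.78% for ribosomal protein genes, 11.2 TPM for the median of interferon-stimulated genes, 205 genes higher in Saline 1 and 3 interferon-stimulated genes higher in Saline 1. Protein-coding nuclear genes rescaled to the same total gave 6.82% for ribosomal protein genes, 22.7 TPM for the interferon-stimulated median and 31 genes higher in Saline 1. The 580 genes higher in Saline 2 became 930 with a pseudocount of 0.1, 234 at a mean of at least 10 TPM and, in alternatives chosen after seeing the data, 301 for main transcripts of 300 to 3000 bases and 350 for protein-coding genes with established names. The 126 higher in Saline 1 became 23 at a mean of at least 10 TPM and 22 for protein-coding genes with established names. With a pseudocount of 0.1, 1 interferon-stimulated gene was 2-fold higher in Saline 2 and 1 in Saline 1. In the counts over all genes, the excess toward Saline 2 was present in each setting. The interferon-stimulated list showed no such excess. No paired analysis was possible because only 1 group is described. TPM carries no depth, so levels near or below 1 TPM have an unknown error.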
